A study of Mus musculus with 5 samples.

Results

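Translation initiation factors bring the ribosome to the start codon of an mRNA. In background terms, eIF4F binds the cap and unwinds the leader, eIF3 holds the small subunit, eIF2 delivers the initiator tRNA, eIF1 and eIF1A govern scanning and start codon choice, and eIF5 and eIF5B act when the start codon has been found and the large subunit joins. Hematopoietic stem cells (HSCs) are known for a low rate of protein synthesis, and initiation is a step at which that rate can be set.

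The genes described here are those whose symbol starts with Eif and a digit, without the eIF2 alpha kinases, without the sex-linked Eif2s3x and Eif2s3y, and without pseudogenes. The rule found 41 genes with 115 probe sets. In all, 18193 genes had a probe set annotated to no other gene, and 45037 probe sets were tested. The rule itself reads symbols and mean signals. Factors without a probe set annotated to them alone are not analysed here.

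RNA came from HSCs of C57Bl/6 mice, sorted from bone marrow as lineage-negative, Sca-1+ and c-Kit+ cells that carried CD150 and lay in the Hoechst-excluding side population. The groups were WT (3 arrays) and Atxn1L-null (2 arrays), the latter from mice null for Atxn1L, a paralog of the ataxin 1 gene, and no treatment was given to either. Mice were 6 to 8 weeks old by the labels, while the study's methods give 8 weeks. The study calls the arrays biological replicates and pooled HSCs for every array, but the labels and methods do not state how many mice went into a pool. Values are log2 GCRMA signals. A difference of 1 is a doubling, and values of different probe sets are not compared as levels because each probe set has its own response. Less of a transcript per cell and fewer cells with it cannot be told apart in bulk RNA.

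Atxn1l, the deleted gene, read 6.80, 6.69 and 4.98 in WT and 3.08 and 3.99 in Atxn1L-null samples on the brighter of 2 probe sets above the floor, and 6.31, 6.52 and 5.74 against 3.23 and 3.65 on the other. Array medians lay between 3.03 and 3.07. Of 8 measured genes of an HSC list 6 had a mean of at least 5 and none was called. CD150 itself (Slamf1) read only 3.92 and 3.89, and Cd48, listed as low in HSCs, read 2.77 in both genotypes. The summed level of the list was 61.8 to 62.5 in WT and 59.0 to 61.3 in Atxn1L-null samples. Within it Abcb1a read 6.89, 6.06 and 6.06 in WT and 4.21 and 6.22 in Atxn1L-null samples. Of 9 granulocyte and monocyte genes 8 had a mean of at least 5, with sums of 90.7 to 98.0 and 92.0 to 99.3, while 0 of 4 erythroid genes did, with sums of 10.9 to 11.7 and 10.9 to 11.1. So did 2 of 3 megakaryocyte, 2 of 5 B, 1 of 5 T and NK and 2 of 6 stroma and endothelium genes. No gene of these lists was called. In control probe sets the 3' signal of Gapdh exceeded its 5' signal by 5.89 to 6.02 in WT and by 7.33 and 7.21 in Atxn1L-null samples, and that of beta-actin by 6.40 to 6.71 and by 7.43 and 7.28. The part of this 5' loss in the differences below was not tested.

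Most initiation factor genes had small differences between the genotypes, and few of them stood out more than other genes did. A probe set was called at a p of at most 0.05 with a fold of at least 1.5, the thresholds of the study, applied here to the unadjusted p of limma. When every gene was represented by its brightest probe set, the one of highest mean over the 5 arrays, 1 of 41 genes was called, Eif6, which fell, and none was called higher. Over all 18193 genes the criterion called 1.57% higher and 1.43% lower, 3% in either direction. The members' 1 of 41 (2.44%) is close to that share of all genes. At p of at most 0.05 without the fold limma gave 4 of the 41 genes, against 7.44% of all genes. These 4 were among the 39 members with a mean of at least 5, where 1144 of 7070 genes of such signal passed. After Benjamini-Hochberg adjustment over all probe sets 0 genes remained. Among genes with a mean of at least 5, the criterion called 3.35% higher and 3.44% lower, 6.79% in either direction. Of the 39 members of such signal it called 1 (2.56%), a lower share, but 1 gene is too small a count to set them apart. The median difference, Atxn1L-null minus WT, was 0.02 over the 41 genes and -0.002 over all genes, with 23 positive and 18 negative differences. Single differences ran from -0.63 to 0.49 on the log2 scale.

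In 12 of the 41 genes (29.3%) the Atxn1L-null and WT values did not overlap, with the null values above WT in 6 and below in 6. The share was 17.5% over all genes and 33.5% over the 7070 genes with a mean of at least 5, a level that 39 of the 41 genes reached. The members' share is therefore near that of other genes of such signal. With 3 arrays against 2, no exact test of 1 gene can give a p below 0.1. For 18 of the 41 genes the 95% confidence interval of the limma difference lay wholly within a 1.5-fold change in either direction, and for the other 23 the arrays leave room for a change of that size. The share was 43.9% of the members, against 66.6% of all genes, and 41.0% of the 39 members with a mean of at least 5, against 31.3% of all genes of such signal.

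**Figure D1:**
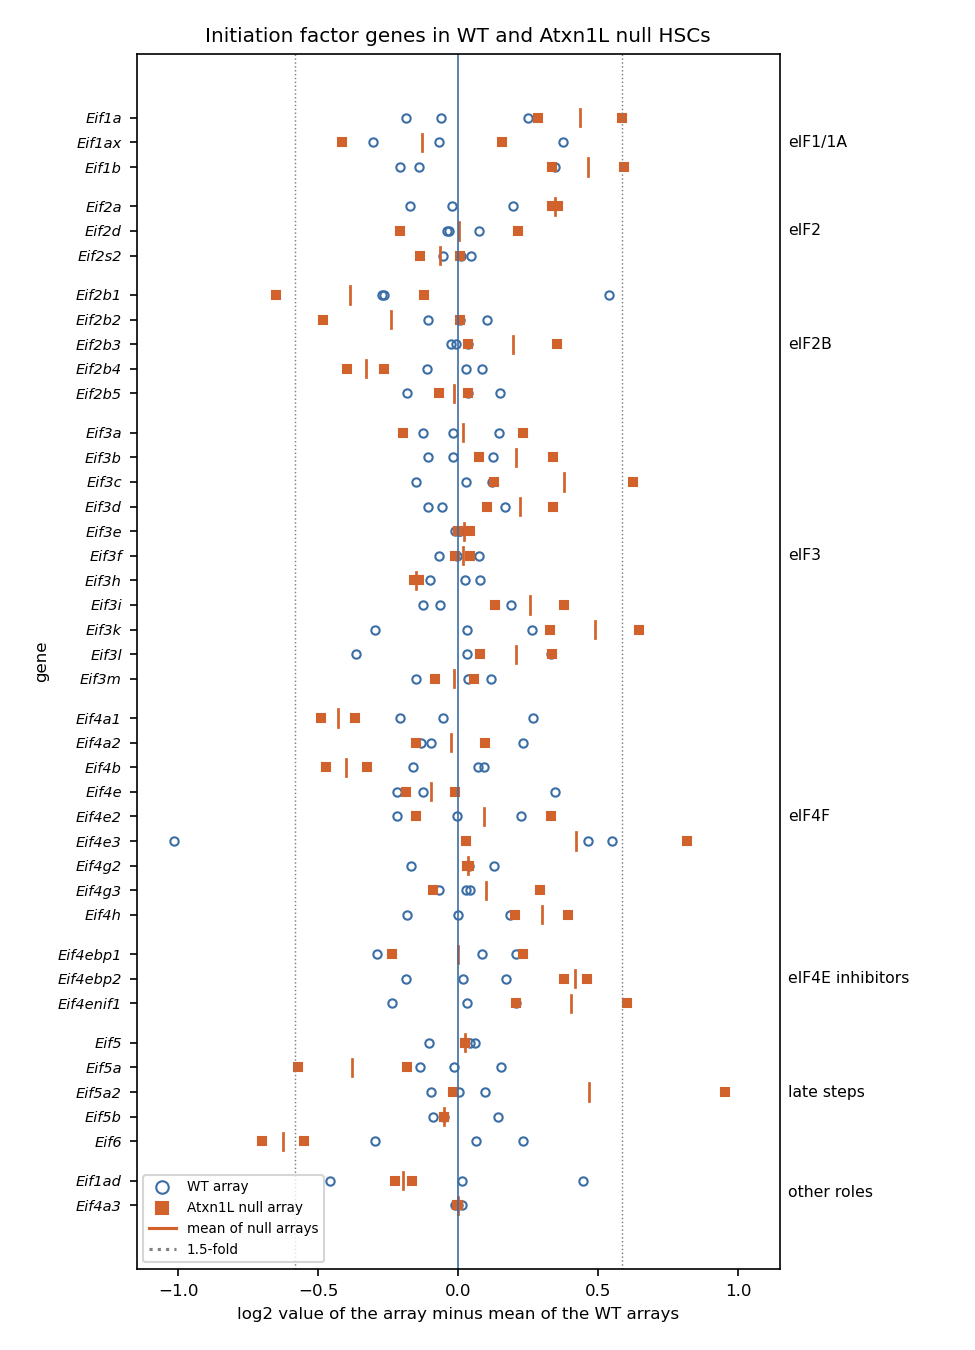
Log2 value of each array minus the mean of the WT arrays (horizontal axis) for the 41 initiation factor genes (vertical axis), grouped by role and read by the probe set with the highest mean. Open circles are WT arrays, filled squares are Atxn1L-null arrays, orange ticks are their means and dotted lines mark 1.5-fold. The mean of Eif6 alone lies past a dotted line, at -0.63.

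Eif6 keeps the large ribosomal subunit from joining too early and also takes part in its assembly. It read 11.56, 11.03 and 11.39 in WT samples and 10.78 and 10.63 in Atxn1L-null samples, a 1.54-fold fall (difference -0.63, SE 0.19, adjusted p of 0.780 by limma). Both null samples lay below every WT sample. The call held without the second WT array and ended without any other single array, where the difference stayed between -0.51 and -0.70. In this and later fits without a null array, the spread comes from the WT arrays alone and the lone null array is assumed to vary as they do. The second probe set of Eif6 read low, at 4.78 in WT and 4.88 in Atxn1L-null samples, and did not follow.

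Among the other genes of subunit joining and late steps, Eif5a was the one whose values did not overlap. Eif5a carries the hypusine modification and helps ribosomes through difficult stretches and at termination. Its brightest probe set read 13.77, 13.48 and 13.60 in WT and 13.04 and 13.43 in Atxn1L-null samples, a difference of -0.38 (SE 0.16) that was not called. Its second probe set differed by -0.64, with 11.37, 10.76 and 11.15 against 10.12 and 10.79, and overlapped by the second null sample. The paralog Eif5a2 differed by 0.47, carried by the second null sample alone, at 6.78 against 5.72 to 5.92 in the remaining 4 samples. Eif5, the GTPase activator of eIF2, read 13.19 and 13.21, and Eif5b, the GTPase of subunit joining, 6.99 and 6.94. Of these 5 genes 1 was lower and 4 were not called.

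The eIF4F complex and its helpers held no called gene among 9. Eif4a1, the helicase that unwinds the leader, read 11.90, 11.58 and 11.43 in WT and 11.15 and 11.27 in Atxn1L-null samples, a difference of -0.43 (SE 0.17). Eif4b, which stimulates that helicase, read 10.64, 10.87 and 10.89 in WT and 10.32 and 10.47 in Atxn1L-null samples, a difference of -0.40 (SE 0.11, adjusted p of 0.691 by limma). In both genes the null values lay below all WT values on a second probe set too, with differences of -0.24 for Eif4a1 and -0.25 for Eif4b, while the third of Eif4b, at 7.78 and 7.84, differed by 0.06 and that of Eif4a1 had a mean of 4.03. Eif4h, another helper of the same helicase, had higher null values on its brightest probe set. It read 12.45, 12.26 and 12.08 against 12.66 and 12.47, a difference of 0.30 (SE 0.14). Of its other probe sets with a mean of at least 5, one differed by 0.27 with overlap and one by 0.35 without, while a dim one, at 4.32, 4.68 and 4.36 against 3.69 and 4.36, differed by -0.43 with overlap.

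The scaffold Eif4g2, a relative of eIF4G that does not bind the cap protein, read 13.74 in WT and 13.78 in Atxn1L-null samples. Further probe sets of Eif4g2 with a mean of at least 5 differed by 0.38 and 0.45, with overlap. Eif4a2, the second eIF4A helicase, read 8.93 and 8.90. Eif4g3, Eif4e2 and Eif4e differed by 0.10, 0.09 and -0.10 on their probe sets of the highest mean. On these probe sets the genotypes overlapped.

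The probe sets of the cap-binding protein Eif4e differed in sign, while those of its relative Eif4e3 gave much the same difference with unequal spread. For Eif4e, the probe set with the highest mean overlapped, at 8.26, 8.83 and 8.35 against 8.47 and 8.30. A second with nearly the same mean signal read 8.14, 8.34 and 8.25 in WT and 8.53 and 8.75 in Atxn1L-null samples, a difference of 0.40 (SE 0.10, adjusted p of 0.654 by limma) with no overlap. For Eif4e3 the probe set with the highest mean had an unusual first WT array, at 8.31 against 9.88 and 9.79, with 10.14 and 9.35 in the null samples, a difference of 0.42 (SE 0.64). Its other probe set varied little within a genotype, at 7.23, 7.25 and 7.26 in WT and 7.72 and 7.70 in Atxn1L-null samples. That difference of 0.46 (SE 0.02) is a fold of 1.38, below the required 1.5, and it had the lowest adjusted p of the 115 probe sets (limma adjusted p = 0.104).

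Of the eIF4E-binding inhibitors, none of 3 was called. The products of Eif4ebp1 and Eif4ebp2 keep eIF4E from eIF4G until mTOR phosphorylates them. Eif4ebp2 read 7.97, 7.82 and 7.62 in WT and 8.18 and 8.26 in Atxn1L-null samples, a difference of 0.42 (SE 0.12, adjusted p of 0.774 by limma) with no overlap, on the one of its 5 probe sets that had a mean of at least 5. Eif4enif1, the eIF4E transporter, differed by 0.40 and shared a value of 5.57 between the first WT and the first null sample. Eif4ebp1 read 9.67 and 9.66, and its other probe set with a mean of at least 5 differed by -0.29 with overlap. On the probe sets of the highest mean the 3 genes thus differed by 0.42, 0.40 and -0.001.

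**Figure D2:**
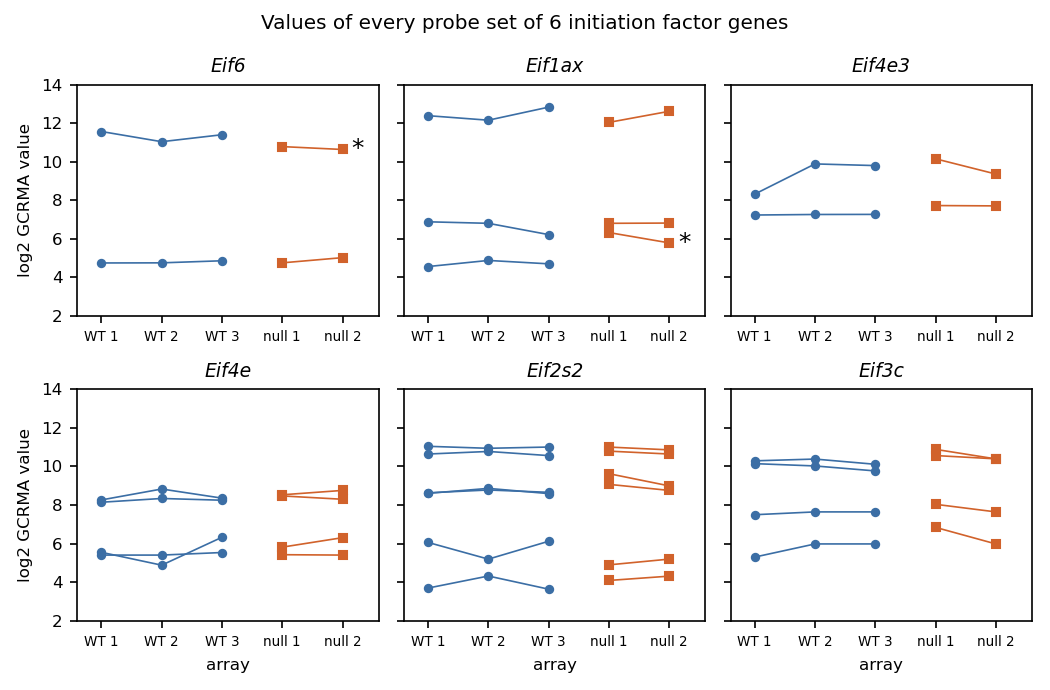
Log2 GCRMA values (vertical axis) of every probe set of 6 initiation factor genes in the 3 WT arrays (blue circles) and the 2 Atxn1L-null arrays (orange squares) along the horizontal axis, a line per probe set and genotype, with an asterisk at the 2 called. For Eif1ax the called probe set reads 4.55 to 4.87 in WT and 6.32 and 5.78 in Atxn1L-null arrays, while the one with the highest mean overlaps.

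The eIF3 complex, the largest of the factors, had 11 measured subunit genes, and none was called in either direction. Of the 11 differences 9 were positive and 2 negative, with a median of 0.21 and a range from -0.15 to 0.49. Over the arrays, the median of the 11 genes relative to the WT means was -0.06, 0.03 and -0.01 in the WT samples and 0.34 and 0.08 in the Atxn1L-null samples, so that most of the shift lay in the first null sample. Since subunits of 1 complex in the same samples are not independent, their number is no replication.

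Eif3k, a peripheral subunit, differed most within eIF3. It read 8.31, 8.64 and 8.87 in WT and 9.26 and 8.94 in Atxn1L-null samples, a difference of 0.49 (SE 0.22), and has 1 probe set. Eif3c, a core subunit, was positive on all 4 of its probe sets, by 0.25 to 0.66. The brightest read 10.29, 10.38 and 10.11 against 10.88 and 10.39, so that the second null sample barely cleared WT. The next read 10.14, 10.02 and 9.77 against 10.56 and 10.39, a difference of 0.50 (SE 0.14), without overlap.

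The remaining eIF3 genes lay closer to WT. Eif3i, a core subunit of the yeast factor as well, differed by 0.26 and 0.39 on its probe sets, and Eif3b, Eif3d and Eif3l by 0.21 to 0.22 with overlap. Eif3a, the largest subunit, read 11.55 and 11.57 on its probe set with the highest mean, whereas another read 8.08, 8.11 and 7.19 in WT and 8.42 and 8.47 in Atxn1L-null samples. Eif3e and Eif3f read 13.32 and 14.29 in WT samples and differed by 0.02 each. Eif3h went the other way, at 11.48, 11.60 and 11.66 against 11.44 and 11.42, a difference of -0.15 (SE 0.06) without overlap, and Eif3m differed by -0.01.

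Of the genes of scanning and start codon choice, Eif1ax was called higher on 1 of its 3 probe sets, which was not the one with the highest mean. Eif1ax encodes the X-linked form of eIF1A. The called probe set read 4.55, 4.87 and 4.69 in WT and 6.32 and 5.78 in Atxn1L-null samples, a 2.54-fold rise (difference 1.34, SE 0.21, adjusted p of 0.430 by limma). The call was made in each fit that left out 1 array, 2 of which had a single null array, and was lost with the replicate number as a block (difference 1.34). The probe set with the highest mean read 12.38, 12.15 and 12.82 against 12.03 and 12.61, a difference of -0.13, and the third 6.88, 6.80 and 6.21 against 6.80 and 6.81, both with overlap. The rise was thus seen by the probe set with the lowest mean signal alone.

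Counted by any probe set, 2 of 41 genes were called, Eif1ax higher and Eif6 lower. Over all genes, 4.48% were called on at least 1 probe set, 2.3% higher and 2.21% lower. By probe sets, 1 of 115 was higher and 1 lower, against 1.13% and 1.25% of all probe sets and 2.38% in either direction. Of the 115, 16 lay wholly above WT and 9 below, where all probe sets gave 6.75% and 7.5%. Of those, 15 above and 8 below were among the 73 with a mean of at least 5. That level was reached by 12517 of all 45037 probe sets. By the probe set with the highest mean, 18.2% of all genes at that level lay above WT and 15.3% below. These shares count each gene once, so they are not a like measure for the 73 probe sets. No share was computed for all probe sets at that level. At p of at most 0.05 there were 9 of 115 by limma, against 5.59%, and 8 of the 9 had a mean of at least 5. At an adjusted p under 0.05 there were 0, against 0.00222%. Eif1a, the autosomal form, differed by 0.43 and 0.44 on its probe sets. The one with the highest mean read 6.98, 7.42 and 7.11 against 7.45 and 7.76, without overlap. Eif1b, a relative of eIF1, read 6.19, 6.68 and 6.12 against 6.92 and 6.67, and its second null sample overlapped.

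**Figure D3:**
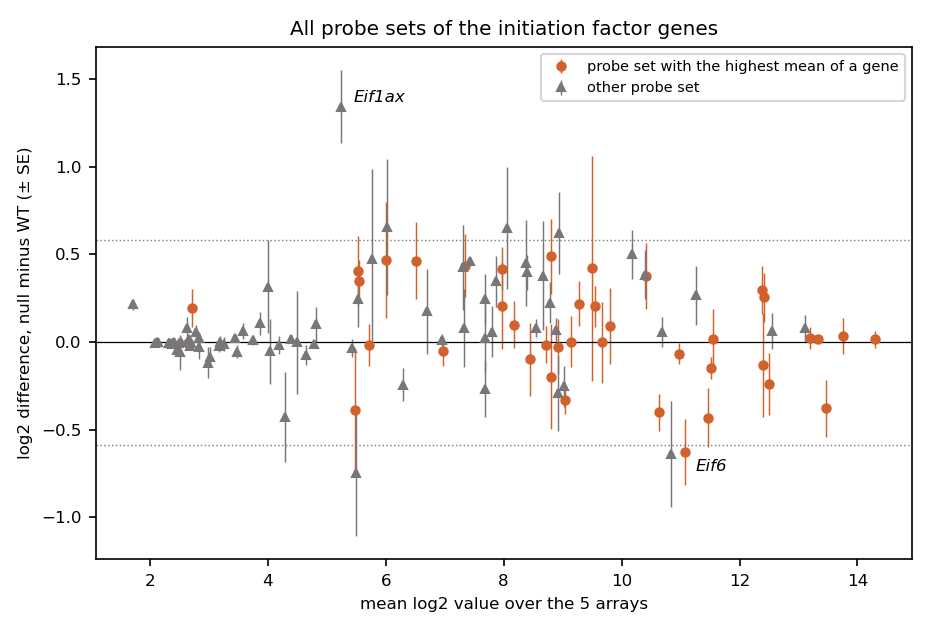
Log2 difference, Atxn1L-null minus WT, with its standard error (vertical axis) against the mean log2 value over the 5 arrays (horizontal axis) for the 115 probe sets of the initiation factor genes. Orange circles are the 41 probe sets with the highest mean of a gene, grey triangles are the others and dotted lines mark 1.5-fold, and the 2 called probe sets are named.

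The genes of initiator tRNA delivery held no call. Eif2s2, the beta subunit of eIF2, read 11.04, 10.94 and 11.01 in WT and 11.00 and 10.86 in Atxn1L-null samples. Its 6 probe sets ran from -0.75 to 0.62, and neither extreme was called: one read 6.06, 5.19 and 6.12 against 4.89 and 5.19, the other 8.60, 8.86 and 8.59 against 9.62 and 8.99. Eif2d, which can deliver the initiator tRNA without GTP, read 9.13 and 9.14. Eif2a, a factor of alternative initiation, read 5.24, 5.61 and 5.39 against 5.75 and 5.77, a difference of 0.35 (SE 0.12) without overlap.

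The eIF2B complex exchanges GDP for GTP on eIF2 and is what phosphorylated eIF2 blocks. None of its 5 subunit genes was called, and 4 differences were negative, with a median of -0.24. Eif2b4, the delta subunit, read 9.20, 9.06 and 9.25 in WT and 8.77 and 8.90 in Atxn1L-null samples, a difference of -0.33 (SE 0.08, adjusted p of 0.648 by limma) without overlap on its only probe set. Eif2b2 differed by -0.24, at 12.61, 12.50 and 12.70 against 12.12 and 12.61, so that the second null sample equalled the first WT sample. Eif2b1, at 6.16 in the first WT sample and 5.35 and 5.36 in the others, differed by -0.39 with overlap, Eif2b5 differed by -0.02, and Eif2b3 read below 3 in every sample.

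Eif4a3, known mainly as the helicase of the exon junction complex, and Eif1ad were not called. Eif1ad read 8.87 in WT and 8.68 in Atxn1L-null samples. The only probe set annotated to Eif4a3 alone read 2.65 in both, near the floor of the scale.

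Probe sets of a gene mostly pointed the same way. Of the 115, 73 had a mean of at least 5, and 19 genes had 2 or more such probe sets. In 14 of these genes all of them had differences of 1 sign, and in 5 (Eif1ax, Eif2s2, Eif4b, Eif4e and Eif5) they had both. In none did 1 probe set lie wholly above and another wholly below WT. The 42 probe sets with a mean under 5 had a median absolute difference of 0.02, against 0.25 for the brighter 73, and hold little information. Values were equal to the last digit between a WT and a null sample for 28 of the 115 probe sets, and these were counted as overlapping.

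The E-box CACGTG, its own reverse complement, is the site that Myc and other basic helix-loop-helix factors bind, and Eif4e is a textbook Myc target. RefSeq promoters of build GRCm38.p6, 250 bases before to 50 after an annotated gene start, were found for 32 of the 41 genes. The motif was in 11 of their 44 promoters (25%), and in 7.15% of all 32851 promoters of that length and 7.84% of the protein-coding ones. By genes it was in 9 of the 32 (28.1%), against 8.09% of all genes and 8.91% of protein-coding ones. A site of Eif5a lies in more than 1 of its promoters, so the promoter count holds it more than once. The lines below give 1 site for each gene with the motif whose null values lay wholly on one side of WT, and 1 of Eif4e for its known role, and the capitals mark the E-box. Eif5a and Eif4e each have a further site that is not printed.
Eif3k, chr7:28981915-28981944, minus strand, 44 bases before the start: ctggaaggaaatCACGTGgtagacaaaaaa
Eif4h, chr5:134639488-134639517, minus strand, 96 bases before the start: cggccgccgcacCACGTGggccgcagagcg
Eif4a1, chr11:69672595-69672624, minus strand, 189 bases before the start: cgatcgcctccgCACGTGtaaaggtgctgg
Eif5a, chr11:69921443-69921472, minus strand, 74 bases before 1 of its 6 starts: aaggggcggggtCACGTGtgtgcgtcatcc
Eif4e, chr3:138527192-138527221, plus strand, 64 bases before 1 of its 2 starts: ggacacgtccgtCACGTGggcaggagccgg
The genes with the motif stood on both sides. Of the 9, 6 had positive and 3 negative differences, from -0.43 to 0.49, and none was called. Eif3k and Eif4h lay above WT and Eif4a1 and Eif5a below it. A match in these windows is a description of the sequence and not of binding.

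Genes that act on or after initiation were read from 4 lists. In the list of eIF2 alpha kinases, phosphatase subunits and stress response genes, 1 of 17 was higher and 1 lower. Eif2ak1, the heme-regulated kinase of eIF2 alpha, fell, with 7.92, 7.63 and 7.71 in WT and 6.81 and 6.75 in Atxn1L-null samples (difference -0.98, SE 0.10, adjusted p of 0.344 by limma). The other probe set of that kinase with a mean of at least 5 differed by -0.07. The call of Eif2ak1 ended when its probe sets were averaged, at -0.19. That average includes probe sets near the floor, with means of 2.48, 2.89 and 2.94, so it would shrink a difference seen by 1 probe set. Ppp1cb, a catalytic subunit of protein phosphatase 1, rose, with 7.57, 7.78 and 7.64 in WT and 8.36 and 8.71 in Atxn1L-null samples (difference 0.87, SE 0.14, adjusted p of 0.432 by limma). Of its 4 probe sets 3 were called higher, and the fourth differed by 0.58.

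The subunits that direct the phosphatase to eIF2 alpha, Ppp1r15a and Ppp1r15b, differed by -0.15 and -0.10. The remaining kinases Eif2ak2, Eif2ak3 and Eif2ak4 read below 5 in both genotypes. Atf4, whose translation rises when eIF2 is phosphorylated, read 11.28, 11.17 and 10.21 in WT and 11.68 and 11.65 in Atxn1L-null samples, a difference of 0.78 (SE 0.39) that was not called, while a second probe set differed by -0.16. Its target genes Ddit3, Trib3, Asns and Chac1 differed by 0.26, -0.09, -0.12 and 0.57 and were not called. Another probe set of Trib3 differed by 0.11, and Atf3 of the same list by 0.27, both with overlap and without a call. Of the 17 differences of this list 9 were positive and 8 negative, so the list did not share a direction.

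Of 15 genes of mTOR and MAPK control, 1 was lower and none higher. Mlst8, a subunit of both mTOR complexes, fell from 6.21, 5.74 and 5.85 to 5.15 and 5.46 (difference -0.63, SE 0.19, adjusted p of 0.797 by limma), a call that held without the second WT array and ended without any other single array. Mtor itself read 5.83, 5.78 and 5.82 against 6.06 and 6.01, a difference of 0.22 (SE 0.03) without overlap. A dimmer probe set of Mtor read 4.36, 3.99 and 4.02 against 3.83 and 3.74, a difference of -0.34, also without overlap, so that the probe sets of Mtor were opposite in sign.

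Of 16 helpers and recycling factors, 1 was higher and none lower. Ddx3x, a helicase for structured leaders, rose from 11.52, 11.87 and 11.44 to 12.27 and 12.21 (difference 0.63, SE 0.16, adjusted p of 0.649 by limma). A second probe set differed by 0.42 and the third by -0.32, and the call of the first held without the second WT array and ended without any other single array and with array weights, at 0.37. Denr, which with Mcts1 recycles ribosomes and reinitiates, read 9.39, 9.39 and 9.33 against 9.78 and 9.69 (difference 0.37, SE 0.04). Of the 16 differences 12 were positive, with a median of 0.19.

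Of 14 elongation and termination factors, 1 was lower and none higher. Eef2, the translocase of elongation, fell from 11.41, 11.43 and 11.35 to 10.91 and 10.53 (difference -0.67, SE 0.13, adjusted p of 0.517 by limma), a call that ended without the second null array. Eef1a1, which brings aminoacyl-tRNA to the ribosome, read 13.59 and 13.72. Etf1, the release factor, differed by 0.70 without a call, at 9.12, 9.39 and 9.39 against 10.34 and 9.65, though a dimmer probe set of it was called higher, by 0.88. The medians of the stress, mTOR and elongation lists were 0.03, -0.004 and 0.01, and with 2 of 17, 1 of 15, 1 of 16 and 1 of 14 genes called, against 3% of all genes and 6.79% of those with a mean of at least 5, the counts are too small to set the lists apart.

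**Figure D4:**
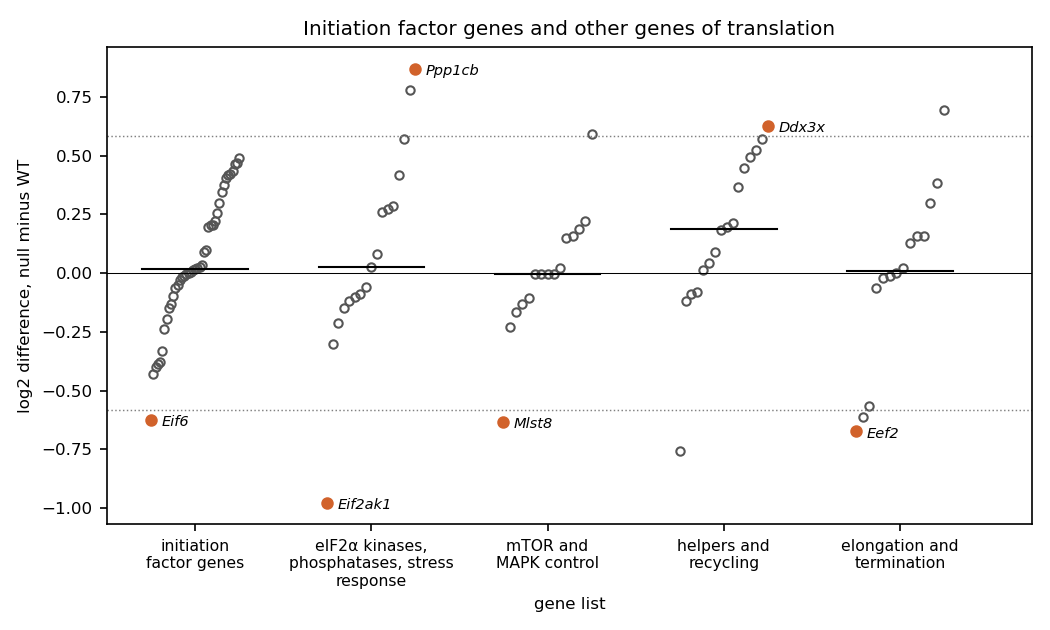
Log2 difference, Atxn1L-null minus WT (vertical axis), of the 41 initiation factor genes and of 4 lists of other genes of translation (horizontal axis), a point per gene in rising order. Filled points are called and named, black bars are medians and dotted lines mark 1.5-fold. The called genes are Eif6, Eif2ak1, Mlst8 and Eef2 on the lower side and Ppp1cb and Ddx3x on the upper side.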

How the data were processed

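The authors hybridised amplified RNA to Affymetrix MOE430.2 arrays and deposited log2 values made with GCRMA (version not given in the sources used here), which corrects the background, applies quantile normalization and summarizes each probe set. That the scale is log2 was judged from the values, which run from 0.925 to 15.8. RNA was amplified by T7-based in vitro transcription, which favours the 3' end. Of 45101 probe sets, 64 controls were left out. Genotypes were compared with lmFit and eBayes in limma 3.58.1 (R 4.3.3), a mean per genotype, with 3 residual and 0.771 prior degrees of freedom. The platform annotation gives 34945 probe sets 1 gene, 932 several and 9160 none. Only the first kind named a gene. No probe set was filtered for low signal. HSCs were pooled for each array, and the labels do not say that pools came from separate animals, so p-values measure only the spread between these samples, which may be technical. The number of arrays limits the precision.

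Members and lists were chosen with earlier results of these data known. Genes named by rule were members called on any probe set, those with the 10 largest differences, the 2 with the highest mean of each group, members whose probe sets separated the genotypes in opposite directions (0 found), Atxn1l, and the called genes of each list. Other members named were picked after their values were seen, as were uncalled genes of the lists. The fit was tested on simulated data. Alternatives were another variance model, array weights, renewed normalization, probe set filters, other ways to read a gene, other call rules, a replicate block and leaving out each array.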

Additional observations from a re-analysis of the deposited data

How the results depend on the processing

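All calls of genes named in the report were lost at an adjusted p under 0.05, where 0 probe sets were higher and 1 lower over the whole array, 0 and 0 among the initiation factors and 0 genes in any list. Among the initiation factor genes the count of falls was 0 with array weights, without probe sets ending in _x_at, _s_at or _a_at, with the mean of a gene's probe sets and with the replicate number as a block, and 3 by p alone, where 1 was higher. The probe set with the largest variance gave 1 higher. Without 1 array in turn 0 to 1 genes were higher and 0 to 1 lower, with 1 to 4 probe sets higher and 0 to 2 lower, and over all probe sets 350 to 1128 higher and 359 to 820 lower. Initiation factor probe sets were 2 higher with a variance trend, with array weights or without dim probe sets, 6 higher and 3 lower by p alone, 4 and 3 by fold alone, 0 lower without the suffixed probe sets, and 0 and 0 with the block. Over all probe sets there were 1442 higher and 1075 lower by p alone, 924 and 1362 by fold alone, 911 lower with array weights, and 290 higher with the block. The median difference was 0.0457 with averaged probe sets, 0.0803 with the largest variance, and 0.00467 to 0.0577 without 1 array.

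In the stress list 1 gene was called with averaged probe sets and 2 to 3 without 1 array. In the mTOR list the count was 0 with array weights, averaging or the block, 2 by p or by fold alone, and 0 to 1 without 1 array. Of the helpers, 2 were called with array weights or the block, where Ddx3x was not among them (differences of 0.37 and 0.54), 2 by fold alone, 4 by p alone, 0 with averaging or the largest variance, and 0 to 2 without 1 array. Of the elongation factors, 2 were called with a variance trend, array weights, the largest variance, p alone or without dim probe sets, 3 by fold alone, 0 with averaging or the block, and 1 to 2 without 1 array. The differences of 3 genes called in either setting turned sign through another probe set: Eif6 to 0.10 without suffixed probe sets, and Eif1ax to 1.34 and Ddx3x to -0.32 by the largest variance. Over all alternatives there were 31 sign changes of differences called in neither setting, among them Eif4h, at -0.43 without suffixed probe sets and by the largest variance. Where no probe set or array was dropped the causes were not tested. The labels number the samples without saying what a number shares, so no pairing is assumed. Deviations of equally numbered samples correlated at -0.03 and -0.26. With 2 null arrays the deviation of one is the negative of the other, so these values are not independent and cannot decide on pairing.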

Other observations

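Probe sets annotated to several genes were left out of the counts. One shared by Eif3j1 and Eif3j2, which encode the loosely bound eIF3j subunit, read 9.03, 9.43 and 9.23 in WT and 9.95 and 9.62 in Atxn1L-null samples, a difference of 0.55 (standard error 0.17, adjusted p of 0.815 by limma) without overlap, at a fold of 1.47. The other two probe sets of these genes differed by -0.18 and 0.17 with overlap. The probe set of Eif4a3 that also matches Gm5576 read 10.24, 10.20 and 10.06 against 10.50 and 10.30, a difference of 0.23 (standard error 0.09). The probe set shared by Eif4ebp3 and Ankhd1 read 5.77 and 5.95.

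Eif2s3x and Eif2s3y encode the gamma subunit of eIF2 from the X and the Y chromosome. Eif2s3x read 7.42, 7.52 and 7.06 in WT and 7.67 and 7.94 in Atxn1L-null samples on its probe set with the highest mean, and Eif2s3y 8.53, 9.21 and 8.66 against 8.62 and 8.00. Neither was called. Xist, transcribed from the inactive X chromosome, read 11.24, 10.44 and 9.89 against 10.25 and 9.58.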
